A study of Mus musculus with 6 samples.

Results

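The proteasome is the chamber in which cells cut proteins that have been tagged with ubiquitin. Its cylindrical core is built of stacked rings, with alpha subunits that form the gate and beta subunits that line the chamber, among them the 3 catalytic ones. A regulatory particle caps the core: its non-ATPase subunits bind and remove ubiquitin, and its ring of ATPases unfolds the substrate and threads it in. Other caps, the activators, open the core without ubiquitin, and dedicated factors assemble the parts. B cells also make inducible catalytic subunits (Psmb8, Psmb9 and Psmb10) that replace the standard ones and shape the peptides shown on MHC class I, and proteasome demand is known to be high in antibody-secreting cells.

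The proteasome genes were taken as the protein-coding genes whose names begin with Psma to Psmg followed by a number, without the 3 inducible catalytic subunits. This gave 47 of the 55487 genes in the table. They comprised 16 core subunits (8 alpha and 8 beta), 17 regulatory particle subunits (6 ATPases and 11 non-ATPases), 6 activators or inhibitors, 7 assembly factors and 1 gene, Psmc3ip, that only shares the name. Psmc3ip encodes a partner of the meiotic recombination machinery and is no proteasome subunit. Another 5 pseudogenes with matching names were left out.

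Messenger RNA was measured in marginal zone (MZ) B cells, a population of the spleen known to answer blood-borne antigens early. There were 3 libraries from mice labelled CD55KO, without the complement regulator CD55, and 3 from WT C57BL/6 mice, all 14 weeks old. B cells were enriched by removing other cells, and MZ B cells were then sorted by flow cytometry, and the labels name no treatment. The comparison asks how MZ B cells of CD55KO mice differ from those of WT mice. The sources used here do not give the strain background, the deleted part or the cell specificity of the knockout. The labels do not say whether libraries came from separate mice, so p-values reflect no more than the spread among these 6 libraries, and that spread may be technical.

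Total counts ran from 24961311 to 29209592 in CD55KO and from 20056064 to 30784031 in WT. Levels below are CPM, that is, counts set relative to the library's total after TMM scaling. Cd55 averaged 7.53 ± 1.36 CPM in CD55KO libraries and 118 ± 7.69 CPM in WT libraries (SD, n = 3). The 5 B cell and 7 MZ B cell markers all passed the count filter, with summed levels of 3045 to 3277 CPM in CD55KO and 2956 to 3159 CPM in WT for the MZ list. The 4 follicular B cell markers summed to 1947 to 2179 CPM in CD55KO and 1740 to 1933 CPM in WT, the germinal centre list to 20.7 to 30.9 CPM in CD55KO and 27.2 to 75.3 CPM in WT, and the dividing cell list to 115 to 139 CPM in CD55KO and 131 to 271 CPM in WT. The macrophage list summed to 5.79 to 9.53 CPM in CD55KO and 3.23 to 10.7 CPM in WT, with Vsig4 at 0. The T cell sum stayed at or under 1.51 CPM and the neutrophil sum at or under 0.391 CPM, with Ly6g and Retnlg at 0. The 8 plasma cell markers, summed, came to 917 to 1103 CPM in CD55KO and 1051 to 1183 CPM in WT. Xbp1, the regulator of secretory capacity in that list, fell to 78.5 ± 6.21 CPM in CD55KO, against 118 ± 14.0 CPM in WT (SD, n = 3, adjusted p = 0.0047 by edgeR's quasi-likelihood test with Benjamini-Hochberg adjustment). The erythroid sum differed greatly between libraries, from 35.5 to 1980 CPM in CD55KO and from 105 to 4326 CPM in WT. WT replicate 1 held the highest erythroid and dividing cell sums and lay apart from the others along the leading principal component, which held 28.8% of the variance.

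No proteasome gene passed an adjusted p of 0.05 in either direction. Of the 47 genes, 45 had enough counts to be tested, and 0 of these were called by edgeR's quasi-likelihood test, where 55 of 13794 genes (0.399%) were called. DESeq2 and limma-voom also called 0 of the 45, where they called 0.993% and 0.399% of all genes. An unadjusted p under 0.05 was found for 2 proteasome genes, or 4.44%, against 8.6% of all genes: Psmc4 and Psme2, both lower in CD55KO, where 4.3% of all genes had such a p and were lower. DESeq2 added Psmd2 and Psme1, and limma-voom gave the same 2 genes as edgeR. The smallest adjusted p was 0.564, that of Psmc4, in edgeR's quasi-likelihood test.

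The estimates were small and mostly on the lower side. Log2 fold changes (CD55KO over WT) were negative for 35 of the 45 tested genes (77.8%), against 49.6% of all genes, with a median of -0.06, against 0.00 over all genes. The genes share libraries and scaling, so they are not independent of each other. Values ran from -0.18 (Psme2) to 0.18 (Psmg1). The 95% interval of the fold lay within 1.5-fold in both directions for all 45. The widest bounds were a fold of 0.670 for Psmc3ip and of 1.35 for Psmg1. Proteasome genes were well counted here, with a median level of 131 CPM, against 13.8 CPM over all tested genes. The lowest count of a tested gene in any library was 93 (Psmc3ip) and the highest was 12372 (Psmb1). The median standard error of the log2 fold change was 0.08, against 0.14 over all genes and 0.10 over genes with a mean of 10 CPM or more.

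**Figure D1:**
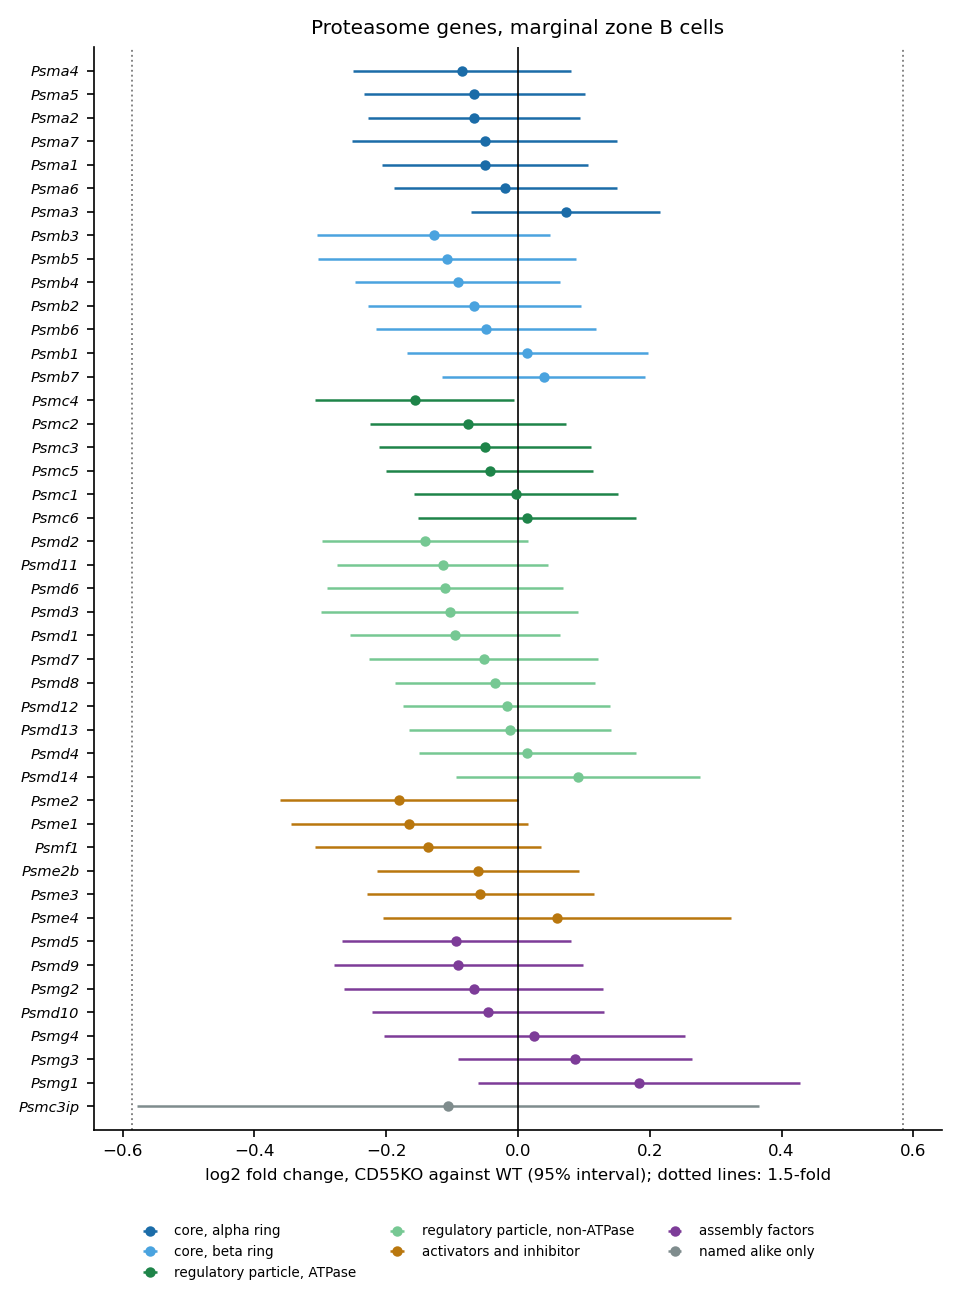
Log2 fold change of CD55KO against WT for the 45 tested genes (points) with 95% intervals from edgeR (bars), ordered by role and by fold change. All intervals lie inside the dotted lines at 1.5-fold, and 35 of the 45 points lie left of 0.

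Summed over the 47 genes, proteasome transcripts made up 5456, 5906 and 5748 CPM in CD55KO replicates 1 to 3, against 5990, 5778 and 6084 CPM in WT replicates 1 to 3. CD55KO replicate 1 was the lowest and WT replicate 3 the highest, and the ranges overlapped, since CD55KO replicate 2 lay above WT replicate 2. The mean was 5703 ± 228 CPM in CD55KO libraries and 5950 ± 157 CPM in WT libraries (SD, n = 3), a difference of -4.16%. In bulk RNA, fewer cells of a type and less RNA per cell cannot be told apart. The plasma cell markers had a mean log2 level of 3.62 to 3.75 in CD55KO and 4.10 to 4.36 in WT, without overlap. Their summed CPM did overlap between genotypes. Of the 7 tested, 6 had a negative log2 fold change and 1 was called in edgeR's quasi-likelihood test. An alternative added after seeing the data put a similar level in the model, the mean log2 level of the 7 of these markers past the count filter. With it, 19 of the 45 fold changes were negative and the median was 0.07. As the groups do not overlap in the level over all 8 markers, genotype and plasma cell level cannot be told apart in this design. The follicular sum also separated the genotypes, and the erythroid sum varied within both. Log2 fold changes were negative for 7 of 8 germinal centre markers (median -1.45) and 7 of 8 dividing cell markers (median -0.55), though the sums of both lists overlapped between genotypes. The part of these 4 lists in the proteasome values was not tested.

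For 9 of the 45 genes (20%) the CD55KO and WT libraries did not overlap, where 14.1% of all tested genes did not overlap. CD55KO lay above WT for 2 of them, Psma3 and Psmg1 (7.24% of all genes did so). CD55KO lay below WT for the other 7 (15.6%, against 6.84% of all genes): Psmc2, Psmc4, Psmd2, Psmd9, Psmd11, Psme2 and Psme2b. None of these had an adjusted p under 0.05 in edgeR's quasi-likelihood test.

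The alpha ring gave a median log2 fold change of -0.05, with 6 of its 7 tested genes negative and 0 called. The genes with the smallest p were Psma4 and Psma3, both ring subunits without a catalytic site. Psma4 had 139.9, 155 and 152 CPM in CD55KO replicates 1 to 3, against 171, 150.2 and 153 CPM in WT replicates 1 to 3. WT replicate 1 was high and CD55KO replicate 1 low, while the rest overlapped (log2 fold change -0.08 ± 0.08 SE, adjusted p = 0.835 in edgeR's quasi-likelihood test). Psma3 had 148, 148 and 149 CPM in CD55KO, against 142, 142 and 139 CPM in WT. All 3 CD55KO libraries were above all 3 WT libraries, with little spread within each group (log2 fold change 0.07 ± 0.07 SE, adjusted p = 0.837 in edgeR's quasi-likelihood test). Psma3 was also the alpha gene with the highest fold change, and Psma4 the one with the lowest. Psma8, an alpha subunit known from the testis, was too low to test, with 12, 8 and 3 counts in CD55KO and 7, 5 and 1 counts in WT.

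The beta ring gave a median of -0.07, with 5 of 7 tested genes negative and 0 called. Psmb3 and Psmb4, both without a catalytic site, had the smallest p. Psmb3 had 238, 257 and 233 CPM in CD55KO, against 258, 249 and 288 CPM in WT. WT replicate 3 was the highest and the groups overlapped; its fold change was the lowest of the ring (log2 -0.13 ± 0.08 SE, adjusted p = 0.739 in edgeR's quasi-likelihood test). Psmb4 had 67.1, 65.8 and 68.0 CPM in CD55KO, against 73.4, 66.7 and 74.0 CPM in WT, with only WT replicate 2 inside the CD55KO range. Its log2 fold change was -0.09 ± 0.07 (SE, adjusted p = 0.809 by edgeR's quasi-likelihood test). Psmb11, the thymus subunit that takes the place of Psmb5 there, was counted 4 times in WT replicate 2 and 0 times elsewhere; in the shallowest library such a zero leaves room for 0.15 CPM (counting error only).

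The standard catalytic subunits are Psmb5, with chymotrypsin-like activity, Psmb6, with caspase-like activity, and Psmb7, with trypsin-like activity. Psmb5 (chromosome 14, 54614119 to 54618022, minus strand, GRCm38) had 107, 135 and 135 CPM in CD55KO, against 130.3, 129 and 147 CPM in WT. Psmb6 (chromosome 11, 70525367 to 70527858, plus strand) had 152, 166 and 170.3 CPM in CD55KO, against 164, 159.8 and 182 CPM in WT. For both genes CD55KO replicate 1 was the lowest library, WT replicate 3 the highest, and the other 4 lay between them. The log2 fold changes were -0.11 ± 0.09 (SE) for Psmb5 and -0.05 ± 0.08 for Psmb6, with adjusted p of 0.821 and 0.928 in edgeR's quasi-likelihood test. Psmb7 had 73.9, 77.1 and 74.4 CPM in CD55KO, against 77.0, 69.2 and 73.2 CPM in WT, with overlapping groups and the highest fold change of the ring (log2 0.04 ± 0.07 SE, adjusted p = 0.939 in the same test).

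Psmb5 and Psmb6 ranked the 6 libraries in the same order. Psma6 and Psma7 gave that order too, save that CD55KO replicates 2 and 3 changed places. The promoters of Psmb5 and Psmb6 are shown for the letters that they share, and no link between those letters and the order was tested. Both hold TGACNNNGC, the core of the element bound by NRF1 (Nfe2l1) and NRF2 (Nfe2l2), factors known to drive proteasome gene transcription. For each, 100 bases are given 5′ to 3′ on the gene's own strand, from RefSeq's GRCm38.p6 promoter table, with that match in capitals. Each stretch ends just before the start that lies farther upstream, which is GENCODE's for Psmb5 and RefSeq's for Psmb6. They lie at chr14:54618023-54618122 (minus strand, Psmb5) and chr11:70525257-70525356 (plus strand, Psmb6).
Psmb5: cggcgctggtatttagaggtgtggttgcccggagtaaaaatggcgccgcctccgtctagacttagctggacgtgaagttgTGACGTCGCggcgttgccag
Psmb6: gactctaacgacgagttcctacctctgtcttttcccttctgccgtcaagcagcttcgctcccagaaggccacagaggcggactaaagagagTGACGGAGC
Windows of 300 bases, from 250 before to 50 after the start, were at hand for 39 of the 47 genes. Psmb7 had no window and was not searched. TGACNNNGC was found on either strand in 6 of the 39 (15.4%), which were Psmb5, Psmb6, Psmc6, Psmd9, Psmd12 and Psme4, against 14.0% of 27025 genes. The windows of Psma6 and Psma7 held no such match. CCAAT, the box bound by NF-Y, was found on either strand in 14 of the 39 (35.9%), against 41.1% of all genes. None of the 39 held both motifs, and a match describes these letters only.

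The libraries at the extremes were not the same in the core and in the regulatory particle, a difference that was not tested. Among the 14 tested core genes, CD55KO replicate 1 was the lowest library for 9 and WT replicate 3 the highest for 9. Among the 17 regulatory particle genes, CD55KO replicate 3 was the lowest for 8 and WT replicate 1 the highest for 7. Over all 45 genes, CD55KO replicate 1 was the lowest for 15 and the highest for 0, and WT replicate 3 was the highest for 17. The median deviation of the core genes from their own mean over the 6 libraries was -0.10 log2 units in CD55KO replicate 1 and 0.10 in WT replicate 3. Within a genotype, the median SD of log2 CPM was 0.09 for proteasome genes, against 0.15 over all genes and 0.11 over those with a mean of 10 CPM or more.

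**Figure D2:**
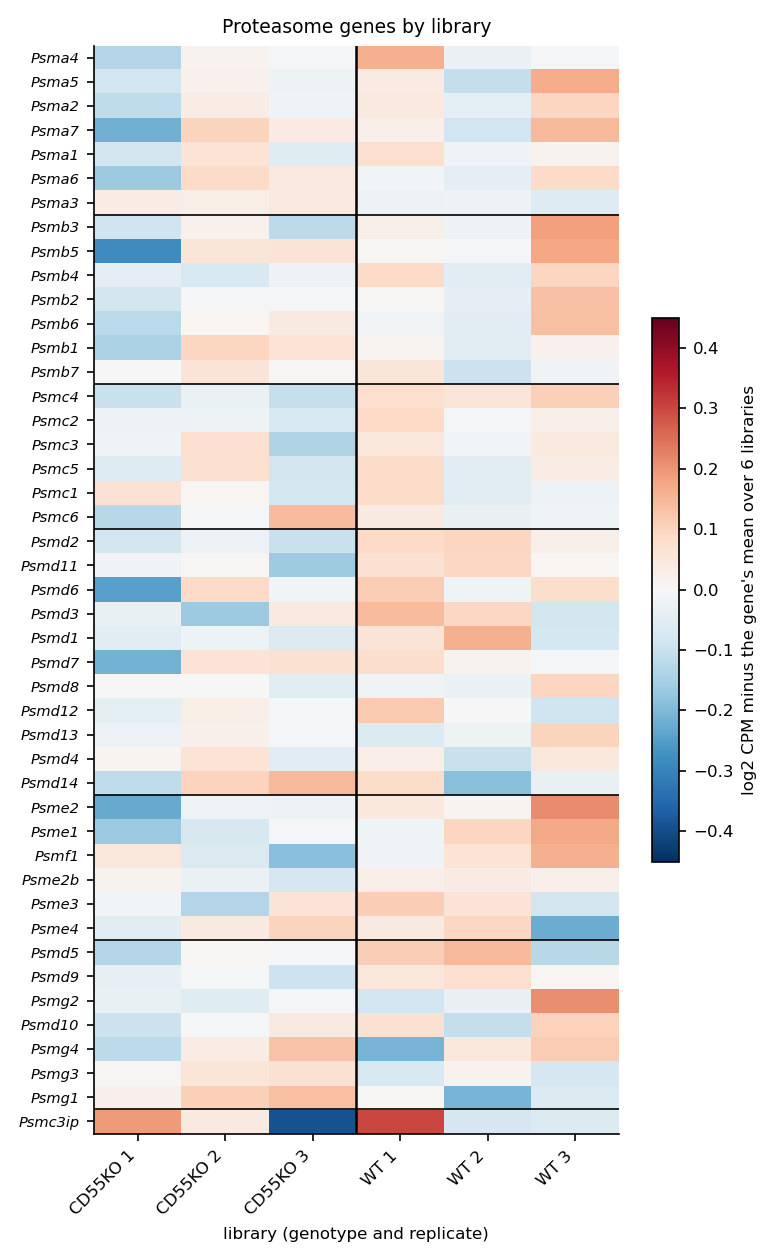
Log2 CPM of each tested gene minus its mean over the 6 libraries (colour), with libraries in columns and genes in rows by role. CD55KO replicate 1 is blue across much of the core and WT replicate 3 is red there, while CD55KO replicate 3 and WT replicate 1 stand out more in the regulatory particle.

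The regulatory particle summed to 2267 ± 66.0 CPM in CD55KO libraries and 2354 ± 56.2 CPM in WT libraries (SD, n = 3), and 14 of its 17 genes had a negative log2 fold change. The core summed to 2405 ± 142 CPM in CD55KO libraries and 2482 ± 115 CPM in WT libraries (SD, n = 3). The ATPase ring had a median log2 fold change of -0.05 with 5 of 6 genes negative. Psmc4 (ENSMUSG00000030603, chromosome 7, 28041707 to 28050101, minus strand), an ATPase subunit, had 163, 171 and 163 CPM in CD55KO, against 184, 181 and 188 CPM in WT. All CD55KO libraries were below all WT libraries. The log2 fold change was -0.16 ± 0.07 (SE, unadjusted p = 0.043, adjusted p = 0.564 by edgeR's quasi-likelihood test). Psmc2, another ATPase, had 151, 151 and 146 CPM in CD55KO, against 163, 153 and 157 CPM in WT. WT replicate 2 lay just above the highest CD55KO library (log2 fold change -0.08 ± 0.07 SE, adjusted p = 0.837 in edgeR's quasi-likelihood test). Psmc6 had the highest fold change of the ring, 0.01 on the log2 scale, and Psmc4 the lowest.

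The 11 non-ATPase subunits had a median of -0.05 with 9 negative. Psmd2, the large scaffold that docks ubiquitin shuttles (chromosome 16, 20651652 to 20663414, plus strand), had 197, 205 and 195 CPM in CD55KO, against 222, 223 and 212 CPM in WT. CD55KO lay below WT in every library (log2 fold change -0.14 ± 0.07 SE, adjusted p = 0.634 in edgeR's quasi-likelihood test). Psmd11, a lid subunit that clamps the particle to the core, had 175, 177.8 and 158 CPM in CD55KO, against 186, 189 and 178.4 CPM in WT. CD55KO replicate 3 was low, and CD55KO replicate 2 and WT replicate 3 were almost equal (log2 fold change -0.11 ± 0.08 SE, adjusted p = 0.742 in the same test). At the other end stood Psmd14, the deubiquitinase that strips ubiquitin from substrates, with 142 ± 13.5 CPM in CD55KO libraries and 133 ± 12.5 CPM in WT libraries (SD, n = 3). Its log2 fold change was 0.09 ± 0.09 (SE, adjusted p = 0.841 by edgeR's quasi-likelihood test).

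The activators and the inhibitor had the lowest median, -0.10, with 5 of 6 genes negative and 0 called. They summed to 676, 712 and 727 CPM in CD55KO, against 747, 772 and 817 CPM in WT, so that the groups did not overlap. The means were 705 ± 25.9 CPM in CD55KO libraries and 779 ± 35.1 CPM in WT libraries (SD, n = 3), a difference of -9.50%. Most of that sum was Psme1 and Psme2, the alpha and beta subunits of the interferon-inducible ring that caps the core and is linked to antigen processing. Psme1 (chromosome 14, 55578123 to 55581529, plus strand) had 294, 315 and 329.7 CPM in CD55KO, against 326, 354 and 373 CPM in WT. CD55KO replicate 3 lay above WT replicate 1, and the groups overlapped there only (log2 fold change -0.16 ± 0.09 SE, adjusted p = 0.631 in edgeR's quasi-likelihood test). Psme2 (ENSMUSG00000079197, chromosome 14, 55587441 to 55591113, minus strand) had 169, 196 and 195 CPM in CD55KO, against 205, 199.99 and 229.7 CPM in WT. All CD55KO libraries were below all WT libraries, with CD55KO replicate 1 the lowest and WT replicate 3 the highest. The log2 fold change was -0.18 ± 0.09 (SE, unadjusted p = 0.0499, adjusted p = 0.581 by edgeR's quasi-likelihood test). Psme3, the nuclear relative of these, and Psmf1, an inhibitor of the core, also had negative values, -0.06 and -0.14. Psme4, a single-chain nuclear activator, had 0.06.

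Psme2 has a near-identical copy, Psme2b, on chromosome 11 (48945354 to 48946190, minus strand), itself among the genes counted. The transcripts were 99.4% identical over 794 bases, and a read that covers none of the differing bases matches both. Over the 720 coding bases there were 5 substitutions, C312T, A369G, C489T, C519T and C543T, given with Psme2's base first and positions from 1 at the first coding base. All 5 lie at the last position of a codon. The 60 coding bases from 487 to 546 hold 3 of them, in capitals, and show how little separates the genes (GENCODE M21 transcripts, GRCm38).
Psme2: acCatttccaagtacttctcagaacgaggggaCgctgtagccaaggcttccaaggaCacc
Psme2b: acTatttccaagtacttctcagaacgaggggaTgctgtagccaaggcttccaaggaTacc
Psme2b had 62.4, 60.4 and 58.6 CPM in CD55KO, against 63.1, 63.4 and 62.7 CPM in WT, with CD55KO just below WT in every library (log2 fold change -0.06, adjusted p = 0.890 in edgeR's quasi-likelihood test). Psme2b also lies within Gm12185 on the same strand, which was at 0.458 ± 0.0544 CPM in CD55KO libraries and 0.756 ± 0.394 CPM in WT libraries (SD, n = 3). With Psme2 and Psme2b added together, which was done after seeing the data, the pair had 232, 256 and 254 CPM in CD55KO, against 268, 263 and 292 CPM in WT. The groups did not overlap for the pair (log2 fold change -0.15 ± 0.08 SE, unadjusted p = 0.081, adjusted p = 0.650 in edgeR's quasi-likelihood test).

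Psma3 (chromosome 12, 70974621 to 70996347, plus strand) may share reads in the same way. Gm13835, a processed pseudogene on chromosome 6, is identical to a stretch of 665 bases of the Psma3 transcript, and received 15423 counts over the 6 libraries, against 23189 for Psma3. With both added, the level was 238, 249 and 254 CPM in CD55KO, against 237, 229 and 237 CPM in WT. CD55KO stayed above WT, with CD55KO replicate 1 close to WT (log2 fold change 0.08 ± 0.08 SE, adjusted p = 0.848 in edgeR's quasi-likelihood test). The sources used here do not say how the authors' counting split such reads, and Psma3's own level is uncertain. Of the 47 genes, 10 had a match of at least 95% identity over at least 200 bases in a transcript of another locus, and 5 more had one only in a gene that overlaps them. After Psma3 and Psme2, Psmd11 shared most, holding 92.4% of the counts of itself and its copies, and the others with pseudogene copies held 95.4 to 99.9%. As strand was not marked, reads from stretches where another gene overlaps on the opposite strand cannot be told apart, for example in Psmb7 (Nek6), Psmc3ip (Mlx) and Psmd13 (Sirt3).

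**Figure D3:**
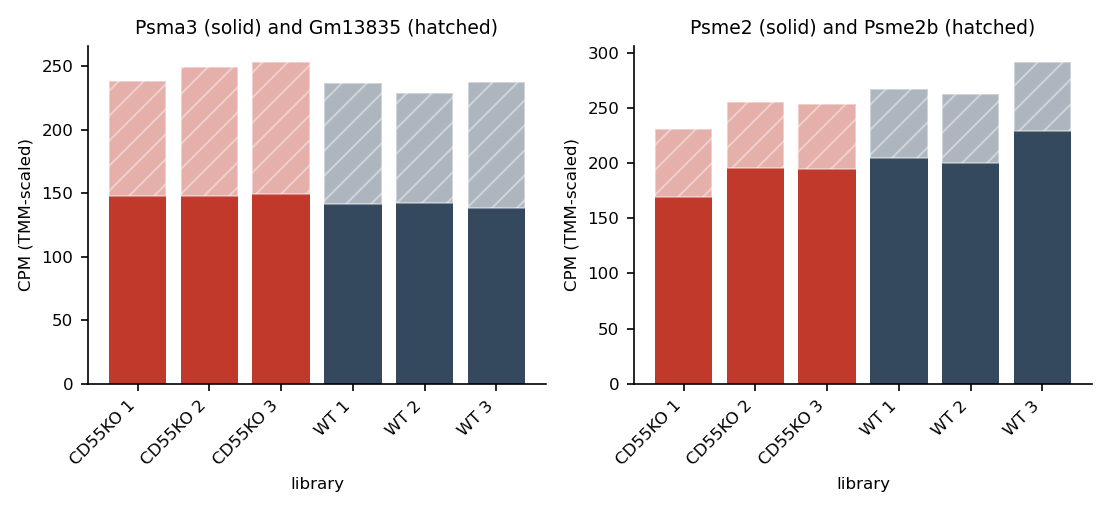
TMM-scaled CPM per library (bars from 0) of Psma3 with its pseudogene Gm13835, and of Psme2 with Psme2b. Gm13835 takes up a large part of its bar, the Psme2 pair is lower in all 3 CD55KO libraries, and the Psma3 pair is slightly higher there.

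The assembly factors had a median of -0.05, with 4 of 7 genes negative, and summed to 322 ± 12.2 CPM in CD55KO libraries and 331 ± 4.49 CPM in WT libraries (SD, n = 3). Psmg1, a chaperone of alpha ring assembly (chromosome 16, 95979933 to 95990960, minus strand), had 15.8, 16.8 and 17.1 CPM in CD55KO, against 15.6, 13.4 and 14.8 CPM in WT. CD55KO lay above WT in every library, with CD55KO replicate 1 and WT replicate 1 nearly equal. The log2 fold change was 0.18 ± 0.12 (SE), the highest of the 45 (adjusted p = 0.724 by edgeR's quasi-likelihood test). Its partner Psmg2 had a value of -0.07. Psmd5, a chaperone of the ATPase ring, had 113, 124 and 123 CPM in CD55KO, against 134, 137 and 114 CPM in WT. WT replicate 3 lay next to the lowest CD55KO library (log2 fold change -0.09 ± 0.08 SE, adjusted p = 0.823 in edgeR's quasi-likelihood test). Psmd9, also an ATPase ring chaperone, had 26.5, 27.1 and 25.5 CPM in CD55KO, against 28.3, 28.7 and 27.4 CPM in WT, with CD55KO below WT in every library (log2 fold change -0.09 ± 0.09 SE, adjusted p = 0.846 in edgeR's quasi-likelihood test). Psmc3ip, which is no assembly factor, had 5.13, 4.57 and 3.26 CPM in CD55KO, against 5.59, 4.18 and 4.23 CPM in WT, and its groups overlapped (log2 fold change -0.11 ± 0.22 SE, adjusted p = 0.946 in the same test).

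Levels per length show how far transcripts of one complex differ. CPM were divided by the length of the principal transcript, a length chosen after those from the union of exons had been seen. The 14 tested core genes ran from 50.7 CPM per kb (Psma3) to 331 (Psmb3), a 6.53-fold range of the means over 6 libraries. Psma3 owed its low place largely to the length used, 2846 bases against 1165 for Psma4. In CPM the 2 were close, at 148 and 149 in CD55KO and 141 and 158 in WT. Psma3 also held only 60.1% of the counts of itself and its copies. Its place at the low end, and with it this range, is therefore uncertain. As background, each core subunit has the same copy number in the finished particle. The tested alpha genes ran from Psma3 to Psma7 at 282 CPM per kb, and the tested beta genes from Psmb4 at 58.5 to Psmb3. The catalytic genes spanned much of it: in CPM per kb, Psmb6 had 204 ± 12.0 in CD55KO libraries and 211 ± 14.6 in WT, Psmb5 had 139.8 ± 18.2 in CD55KO and 151 ± 10.9 in WT, and Psmb7 had 64.8 ± 1.47 in CD55KO and 63.1 ± 3.4 in WT libraries (SD, n = 3). The ATPases ran from 38.6 (Psmc6) to 122 (Psmc4), a 3.15-fold range. The non-ATPases ran from 19.6 (Psmd3, a lid subunit) to 164 (Psmd4, a ubiquitin receptor). The assembly factors were at 10.5 (Psmd9) to 46.9 (Psmg4, a chaperone of the core), and all lay below the lowest tested core gene by this length. The activators were widest, from 2.27 (Psme4) to 299 (Psme1). With the union of exons the order changed: Psmb2 was then the highest tested core gene at 153 CPM per kb and Psmb7 the lowest at 21.7, a 7.04-fold range. The highest assembly factor, at 46.9 by either length, then lay above the lowest tested core gene.

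**Figure D4:**
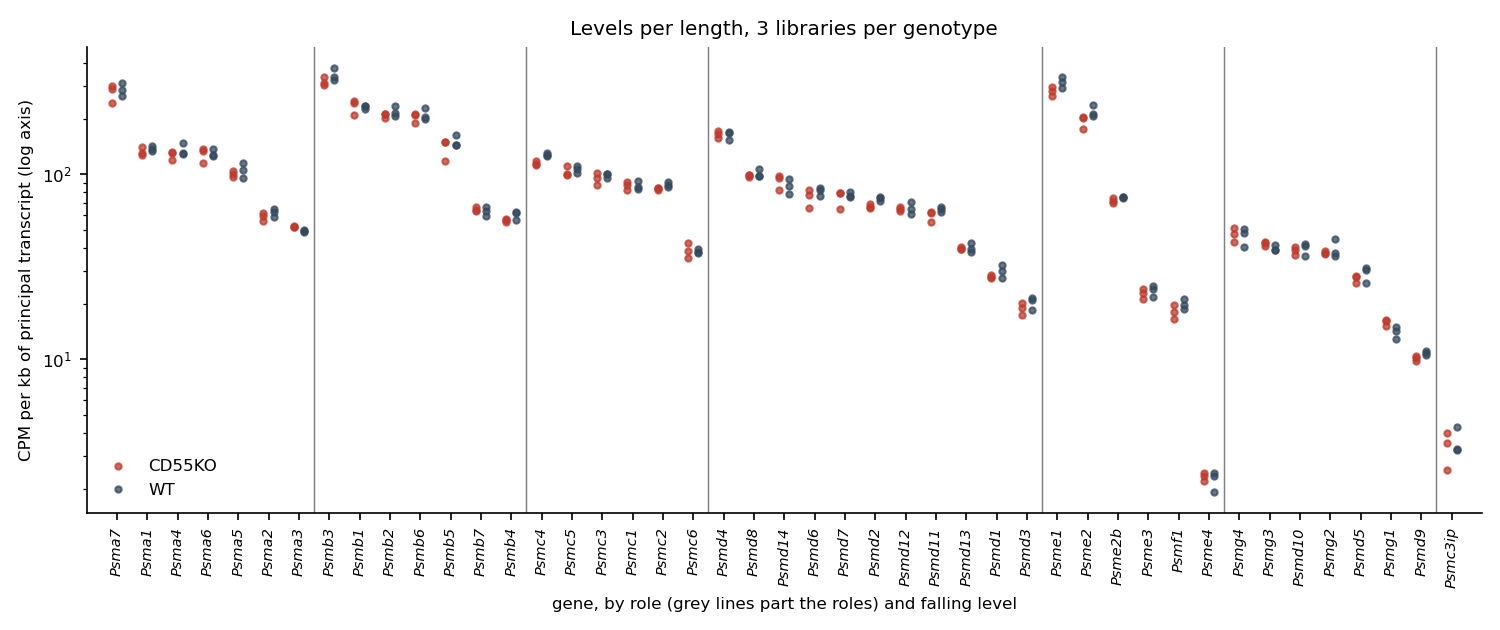
TMM-scaled CPM per kb of principal transcript (log axis) for each tested gene, 3 points per genotype, by role and falling level. Points of CD55KO and WT lie close together for each gene, while genes of one role differ several-fold.

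The inducible subunits, which were left out of the 47 genes, were set against the standard subunit that each replaces. Their share of the pair, in CPM per kb, was 70.1 ± 1.83% in CD55KO and 69.8 ± 0.663% in WT for Psmb8 with Psmb5 (SD, n = 3). For Psmb9 with Psmb6 it was 41.4, 40.2 and 39.9% in CD55KO, against 41.9, 43.4 and 42.1% in WT. CD55KO lay below WT in every library for that pair, with means of 40.5 ± 0.776% in CD55KO and 42.5 ± 0.827% in WT. For Psmb10 with Psmb7 it was 65.1 ± 1.11% in CD55KO and 68.4 ± 2.73% in WT, with overlapping libraries. The log2 ratio differed by 0.03, -0.12 and -0.21 for the 3 pairs in that order, and the sign for Psmb8 with Psmb5 turned without CD55KO replicate 1 or without WT replicate 3. Two-sided exact permutation tests gave p = 0.9, 0.1 and 0.2, with adjusted values of 0.9, 0.3 and 0.3 over the 3 ratios. With 3 libraries a group the smallest p possible is 0.1. The shares in percent, and the ranking of the pairs by them, rest on the lengths of the principal transcripts. By the union of exons Psmb6 is 1872 bases long rather than 798, and Psmb7 is 3421 rather than 1160. Shares by that length were not computed. Psmb9 and Psmb10 themselves had log2 fold changes of -0.17 ± 0.08 and -0.18 ± 0.08 (SE), both with adjusted p above 0.05 (0.564 and 0.569 in edgeR's quasi-likelihood test), and Psmb8 had -0.09 ± 0.08 (adjusted p = 0.838).

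**Figure D5:**
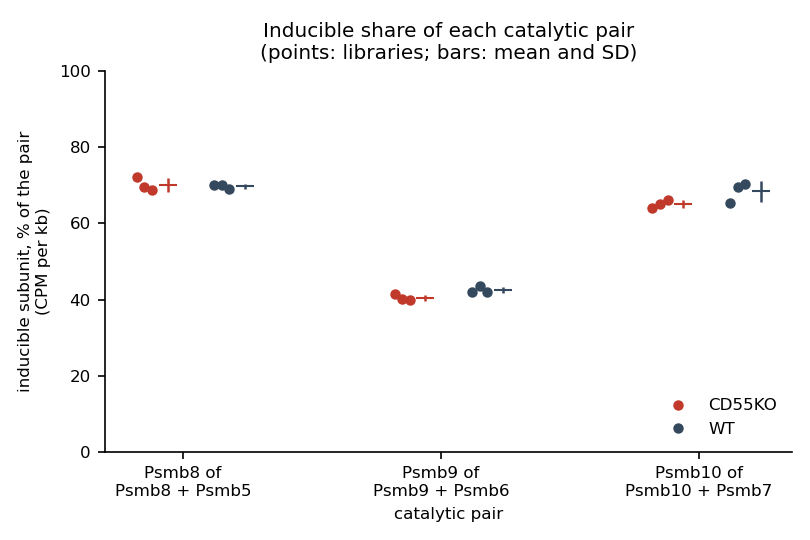
Share of the inducible subunit in each catalytic pair, in percent of summed CPM per kb of principal transcript, per library (points) with mean and SD (bars). Psmb9 has the lowest share by this length, and for it the 3 CD55KO points lie below the 3 WT points.

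Other genes of the pathway were counted from lists drawn up with the roles. Of 31 tested genes, including the inducible subunits, 0 passed the threshold in either direction in edgeR's quasi-likelihood test, where 0.399% of all genes did. An unadjusted p under 0.05 in that test was found for 2 of the 31, Psmb9 and Psmb10, where 8.6% of all genes had one. DESeq2 and limma-voom also called 0. Among 10 further subunits, chaperones and partners, 6 had a positive and 4 a negative log2 fold change. Uchl5, a deubiquitinase of the regulatory particle, had -0.17 ± 0.08 (SE), and Zfand5, a proteasome-binding protein, had 0.26 ± 0.13 (SE), with adjusted p of 0.600 and 0.624 in edgeR's quasi-likelihood test. Nfe2l1 and Nfe2l2, named for the promoter letters above, both had 0.00. Among the 6 shuttle receptors, which carry ubiquitinated proteins to the proteasome, the smallest p were those of Ubqln2, at -0.29 ± 0.21 (SE), and Ddi2, at 0.08 ± 0.07. Ddi2, the protease that activates NRF1, also stood in the list of the 7 NRF1 pathway genes, beside Vcp, the segregase that pulls ubiquitinated proteins from membranes, at -0.10 ± 0.08 (SE). Of the 6 ubiquitin and E1 genes, Uba1, the main ubiquitin-activating enzyme, had -0.11 ± 0.07 (SE).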

How the data were processed

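The authors deposited a table of estimated counts, 1 value per gene and library with no scaling; 30.9 to 31.9% of nonzero values in a library were not whole (tolerance 0.005), and all were rounded here. RNA was extracted with a micro column kit and libraries were made with a low-input kit that does not mark strand, per the labels' protocols. DRAGEN, edgeR and limma are named in the submitters' processing notes; build, annotation and settings: not given in the sources used here. Of 55774 rows, 287 that repeated a gene ID were removed. Genotype and replicate came from the labels.

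CD55KO and WT were compared in R 4.3.3 using edgeR 4.0.16 (filterByExpr with minimum count 10 and minimum total 15, TMM, robust quasi-likelihood test, genotype alone, Benjamini-Hochberg over all genes tested, threshold 0.05), which was tested on simulated data. DESeq2 1.42.0 and limma 3.58.1 (voom) were alternatives. A count of 0 allows up to 3 counts, or 0.0975 to 0.15 CPM by library. Chi-square values between replicates of a genotype were 14.1 to 36.1 times their degrees of freedom, so none was treated as a duplicate. Gene IDs were looked up in GENCODE M21 (GRCm38) for positions and lengths; it held 99.5% of the IDs. Near-identical transcripts were found with blastn 2.17.0.

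The members, roles and lists were chosen with earlier results of these data known. By rule, values in every library are given for any member past the threshold or else for the 2 with the smallest p in each role, and for Psmb5, Psmb6 and Psmb7; the tested members with the highest and lowest fold change and level of each role are named. Outside the rule, Psme2b, Psme3, Psmf1, Psmg2, Nfe2l1, Nfe2l2 and the library values of Psmd9 were picked with their values in view. The result of a member of the ubiquitin and E1 list is left out here.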

Additional observations from a re-analysis of the deposited data

How the results depend on the processing

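No proteasome gene was called under any of the 16 alternatives, which were other scalings, filters and tests, the replicate block, near copies added together, plasma cell level as a covariate, and leaving out each library in turn. The median log2 fold change of the proteasome genes stayed between -0.08 and -0.04 when a library was left out (-0.04 without CD55KO replicate 1). It came to 0.074 with the plasma cell covariate, which was added after seeing the data, as were the near copies. CD55KO and WT did not overlap in the mean log2 level of all 8 plasma cell markers. The number of all genes called was 137 with DESeq2, 232 without a count filter and 4 with the covariate, against 55, and 37 to 53 with a library left out; the cause was not tested. Of 256 values for 16 named genes, 248 kept their direction and side of the threshold and 8 turned positive, none past the threshold: Psma4 0.40, Psmc2 0.055, Psmd5 0.30 and Psmc3ip 0.39 with the covariate, Psmb6 without CD55KO replicate 1 or WT replicate 3 (range with a library left out -0.084 to 0.0095), and Psmc3ip without CD55KO replicate 3 or WT replicate 1 (range -0.25 to 0.061). The log2 ratio of Psmb8 to Psmb5 ranged from -0.047 to 0.074 with a library left out (negative without CD55KO replicate 1 or WT replicate 3), that of Psmb9 to Psmb6 from -0.14 to -0.09 and that of Psmb10 to Psmb7 from -0.32 to -0.15. Same-numbered libraries correlated at 0.07, -0.12 and 0.17 in their deviations, and differently numbered ones at -0.23 to 0.17. This check cannot tell whether the numbers pair the samples, and the labels do not say. With the replicate block, 64 genes and 0 proteasome genes were called, and the median was -0.06. Psma8 and Psmb11 did not pass the count filter with all 6 libraries.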

Other observations

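Pseudogene copies of other proteasome genes were mostly low. Gm14048, a processed pseudogene copy of Psmd11, averaged 9.87 ± 1.31 CPM in CD55KO libraries and 11.6 ± 1.19 CPM in WT libraries (SD, n = 3), and A730017L22Rik, a processed transcript with another copy, had 638 counts over the 6 libraries. The Psma5 copies Gm8394 and Gm12989 had 600 and 383 counts over the 6 libraries, against 20418 for Psma5. Gm609 and Gm4742, 2 further copies of Psma3, had 0 counts in all libraries.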
